A study of Mus musculus with 6 samples.

Results

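The osteoblast and mineralization genes examined here were Runx2, Sp7, Alpl, Ibsp, Spp1, Bglap, Bglap2, Dmp1, Phex and Mepe. They were found by gene name in the deposited count tables, and all 10 were present among 46078 listed genes. The libraries were made from growth plate cartilage of the distal femur and proximal tibia of mouse embryos, labelled E18.5, from which the protocol states that other tissue was removed. The labels conflict on age, since their growth protocol speaks of animals 2 months old while the age field and the study's methods give E18.5. The 3 control libraries came from littermate Idh1 LSL/+ embryos, which carry a lox-stop-lox Idh1 allele and no Cre. The 3 mutant libraries came from Col2a1-Cre; Idh1 LSL/+ embryos, in which the Cre recombinase is driven by the Col2a1 promoter of cartilage cells and releases the mutant Idh1 of the same allele. Both genotypes therefore carry the lox-stop-lox allele, while the Cre transgene was present in the mutants alone, so that an effect of Cre and an effect of mutant Idh1 cannot be told apart. The labels number the libraries 1 to 3 in each genotype and do not say whether each came from its own animal, so that p-values measure the spread between these libraries. The comparison asked whether transcripts of early and of late osteoblast differentiation differed between mutant and control growth plates.

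Bone of the limbs forms on a cartilage template. Osteoblasts are specified by the transcription factors Runx2 and Sp7, and Alpl (tissue-nonspecific alkaline phosphatase) removes pyrophosphate, an inhibitor of mineral deposition. The cells then secrete bone sialoprotein (Ibsp) and osteopontin (Spp1), and at maturity osteocalcin (Bglap and Bglap2). Cells buried in bone as osteocytes express the matrix protein Dmp1, the endopeptidase Phex and the phosphoglycoprotein Mepe, which act on mineral and phosphate handling. Runx2, Sp7, Alpl, Ibsp and Spp1 are also expressed by maturing chondrocytes, and Spp1 by osteoclasts. Runx2, Sp7 and Alpl were taken as early genes, Ibsp and Spp1 as middle genes, and the other 5 as late genes.

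Library totals lay between 23445687 and 30415773 counts, and levels are given as CPM, counts scaled to a library total of 1000000 with edgeR's TMM factors of 0.964 to 1.02. The limit of detection was set at 3 counts, which equalled 0.0979 to 0.127 CPM. This limit covers counting error only. Idh1 itself had 37.3, 39.2 and 65.4 CPM in control tissue and 47.6, 47.7 and 56.3 CPM in mutant tissue, so that its total level did not separate the genotypes. Mutant 3 had 26356 counts of Xist against 0 to 13 in the other libraries. Counts of Y-linked genes were 512 in mutant 3 and 4193 to 5829 in the others, so that mutant 3 differed in sex-linked transcripts. Runx2, which was lowest in this library, and the X-linked Phex are given without it. The labelled cell type is growth plate chondrocytes, and markers of other tissues were also present. The sum of 8 skeletal muscle markers, led by Myh8 and Acta1, was 13928 to 21582 CPM over the 6 libraries, above the sum of 8 cartilage markers, led by Col2a1 and Acan, of 3244 to 7204 CPM. Per kilobase of exon, the mean level over the 6 libraries was 5832 CPM for Col1a1, the main collagen of bone and fibrous tissue, and 620 CPM for Col2a1, the main collagen of cartilage. Control 3 stood apart in the genes described here, with the lowest of the 6 levels in 6 of the 10 genes, and several differences are given without it as well.

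Ibsp, Mepe, Spp1 and Dmp1 belong to the family of secreted acidic glycoproteins of bone and teeth known as SIBLING proteins, and lie in a row on the forward strand of chromosome 5. In the count tables, on GRCm38, Dmp1 spanned chr5:104202613-104214102, and the starts of Ibsp, Mepe and Spp1 followed 96.6, 122.7 and 232.5 kb downstream. The 250 bases before the RefSeq start site (GRCm38.p6) of these neighbours, and of Bglap on the reverse strand of chromosome 3, are shown because these 5 genes had the widest spread between libraries of the same genotype. All are written 5′ to 3′ on the gene's strand, and capitals mark TGTGGT or its reverse complement ACCACA, the core of the site bound by Runx proteins.
Dmp1, chr5:104202367-104202616, forward: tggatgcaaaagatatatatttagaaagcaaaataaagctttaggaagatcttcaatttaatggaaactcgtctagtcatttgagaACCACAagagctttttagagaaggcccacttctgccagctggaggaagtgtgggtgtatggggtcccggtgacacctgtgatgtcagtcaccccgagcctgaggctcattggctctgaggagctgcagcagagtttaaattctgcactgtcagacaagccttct
Ibsp, chr5:104299037-104299286, forward: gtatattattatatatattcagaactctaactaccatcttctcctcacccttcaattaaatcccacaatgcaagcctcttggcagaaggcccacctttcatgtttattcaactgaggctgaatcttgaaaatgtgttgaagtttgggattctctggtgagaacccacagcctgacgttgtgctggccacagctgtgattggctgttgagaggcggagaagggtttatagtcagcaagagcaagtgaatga
Mepe, chr5:104325079-104325328, forward: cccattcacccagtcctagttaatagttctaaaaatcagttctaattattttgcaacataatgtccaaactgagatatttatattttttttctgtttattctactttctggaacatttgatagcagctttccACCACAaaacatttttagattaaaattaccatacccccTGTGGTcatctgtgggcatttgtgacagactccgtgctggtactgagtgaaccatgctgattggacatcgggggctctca
Spp1, chr5:104434861-104435110, forward: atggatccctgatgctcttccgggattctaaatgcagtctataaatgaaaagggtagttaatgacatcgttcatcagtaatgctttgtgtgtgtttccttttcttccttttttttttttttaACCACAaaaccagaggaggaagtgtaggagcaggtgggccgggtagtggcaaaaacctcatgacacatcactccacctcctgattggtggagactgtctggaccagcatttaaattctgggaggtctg
Bglap, chr3:88384467-88384716, reverse: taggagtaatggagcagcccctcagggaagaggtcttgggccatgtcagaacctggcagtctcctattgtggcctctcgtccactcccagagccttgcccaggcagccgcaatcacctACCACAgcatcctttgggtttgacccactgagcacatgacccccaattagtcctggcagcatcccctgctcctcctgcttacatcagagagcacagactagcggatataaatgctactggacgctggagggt
Windows were found for 8 of the 10 genes, all but Sp7 and Bglap2. The letters TGTGGT or ACCACA stood in 5 of these 8, namely Runx2, Spp1, Bglap, Dmp1 and Mepe, and in 14% of the 32851 windows of the same length before all RefSeq start sites. Mepe held 2 matches, 118 and 80 bases before the start. The letters TATAAA or TTTATA, searched in the same way and not overlapping the marked matches, stood 28 bases before the start of Ibsp and 27 bases before that of Bglap, further upstream in Spp1 and Mepe, and in 12.4% of all windows. These matches are a description of letters, and binding was not measured.

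The osteocalcin genes Bglap (chr3:88383501-88384464) and Bglap2 (chr3:88377736-88378699) are near-identical neighbours on the reverse strand. Their coding sequences of 288 bases, the longest open reading frame in the GENCODE M21 transcripts, are shown because they limit how the reads could be counted. Capitals mark the 4 bases at which they differ (98.6% identity).
Bglap: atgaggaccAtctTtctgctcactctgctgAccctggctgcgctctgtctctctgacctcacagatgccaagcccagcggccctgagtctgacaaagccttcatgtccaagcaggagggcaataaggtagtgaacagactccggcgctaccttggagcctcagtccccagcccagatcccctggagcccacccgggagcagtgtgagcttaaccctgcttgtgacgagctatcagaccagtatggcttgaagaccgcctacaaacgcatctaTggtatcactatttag
Bglap2: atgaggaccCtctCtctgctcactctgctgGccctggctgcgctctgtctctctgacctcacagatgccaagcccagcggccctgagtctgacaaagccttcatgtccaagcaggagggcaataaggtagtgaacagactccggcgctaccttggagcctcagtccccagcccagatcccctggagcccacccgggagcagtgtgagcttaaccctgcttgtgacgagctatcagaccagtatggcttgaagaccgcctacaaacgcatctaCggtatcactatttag
Of the 50-base stretches of the Bglap transcript, the length of the reads, 25.3% occurred in no transcript of another gene, and of those of Bglap2 11.8% did. Since reads that mapped to several places were not counted, a read from the other stretches could not be assigned. The counts of both genes are therefore uncertain and may be too low.

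Per kilobase of exon, the mean level over the 6 libraries ran, from high to low, in the order Ibsp (403 ± 247 CPM per kb, SD, n = 6), Spp1 (124 ± 81.3), Alpl (40.5 ± 7.06), Dmp1 (29.2 ± 24.5), Sp7 (18.9 ± 4.55), Runx2 (4.38 ± 0.855), Phex (2.40 ± 1.17), Bglap2 (2.35 ± 1.06), Bglap (1.2 ± 0.835) and Mepe (0.608 ± 0.523). Neighbours in this order had overlapping ranges over the libraries, with the exception of Sp7 and Runx2. The places of Bglap2 and Bglap are uncertain, since reads of shared stretches were not counted. Within libraries Ibsp lay above Spp1 in 6 of 6, Alpl above Dmp1 in 5 of 6, and Phex above Bglap2 in 3 of 6. Bone sialoprotein was thus the most abundant of these transcripts in each library. In bulk samples fewer cells of a type and less RNA per cell cannot be told apart, for this and each level that follows.

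**Figure D1:**
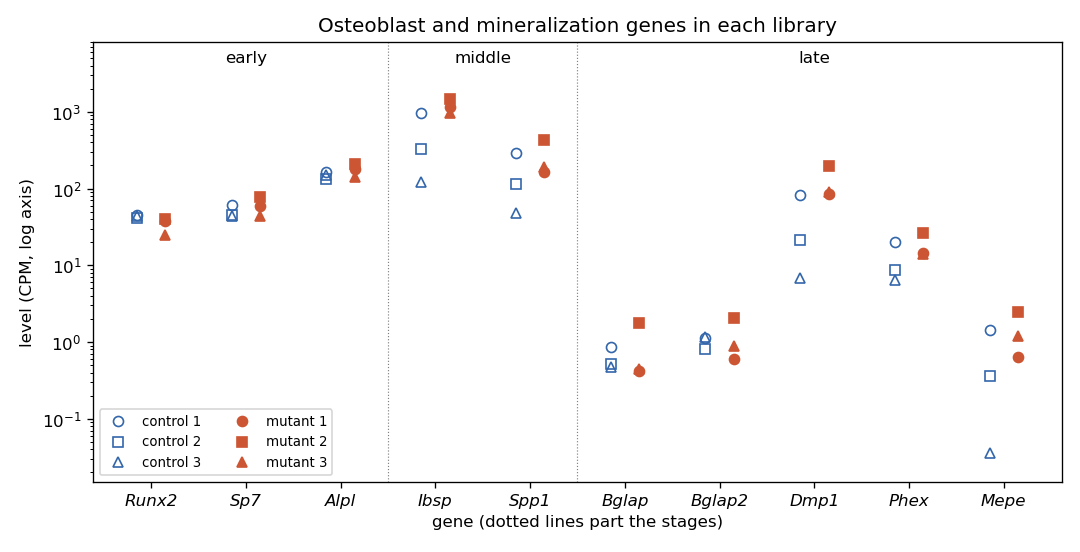
Level of each of the 10 genes in each library, in CPM on a logarithmic axis, with open blue symbols for control and filled orange symbols for mutant libraries and 1 symbol shape per replicate number. The labels do not say whether a number pairs libraries. The early genes stayed within 1.86-fold over the 6 libraries, while Dmp1 ranged from 6.76 to 198 CPM and Ibsp from 120 to 1475 CPM.

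The early genes varied less between libraries than the middle and late genes, though more within genotypes than the median gene tested. Runx2, the transcription factor that starts osteoblast differentiation and drives chondrocyte maturation (chr17:44495987-44814797, reverse strand), had 45.6, 41.0 and 43.9 CPM across the control libraries, against 37.2, 39.9 and 24.5 CPM across the mutant libraries. Each mutant was below each control, with mutant 3 the lowest. The log2 fold change was -0.36 (standard error 0.16, 95% interval -0.72 to -0.0090) with an adjusted p of 0.563 from edgeR's quasi-likelihood test. Without mutant 3 it was -0.17. Runx2 shares 519 exon bases with the antisense gene Runx2os1, and the counting ignored strand, so that its count is uncertain.

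Sp7 (osterix), which acts downstream of Runx2 (chr15:102356609-102366325, reverse strand), had 61.8, 45.6 and 43.4 CPM in control libraries, and the mutant libraries had 58.8, 76.4 and 43.5 CPM. The groups overlapped, with mutant 2 the highest and control 3 and mutant 3 nearly level. The log2 fold change was 0.24 (95% interval -0.19 to 0.68), or 0.15 without control 3 and 0.029 without mutant 2. Alpl (chr4:137741733-137796384, reverse strand) had 164, 134 and 148 CPM in control tissue and 182, 210 and 143 CPM in mutant tissue, again with mutant 2 the highest and with overlap. Its log2 fold change was 0.26 (95% interval -0.045 to 0.57), or 0.13 without mutant 2 and 0.40 without mutant 3. For Sp7 and Alpl these intervals leave out a doubling or a halving of the level.

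The middle genes varied much more. Ibsp had 974, 332 and 120 CPM across the control libraries, against 1142, 1475 and 952 CPM across the mutant libraries. The spread within the controls, 8.13-fold, was wider than that within the mutants, 1.55-fold, and control 1 lay among the mutants. The group means were 475 ± 445 and 1190 ± 265 CPM (SD, n = 3 each). Their log2 fold change was 1.32 (standard error 0.57, 95% interval 0.051 to 2.6) with an adjusted p of 0.557 from edgeR. Without control 3 the log2 fold change was 0.87, and without control 1 it was 2.40.

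Spp1 followed the same order within the controls, with 287, 116 and 47.3 CPM. The mutants had 164, 425 and 191 CPM, so that control 1 lay above mutants 1 and 3. The log2 fold change was 0.79 (95% interval -0.45 to 2.03). It was 1.67 without control 1, 0.37 without control 3 and 0.24 without mutant 2. Spp1 shares 309 exon bases with another listed gene, RP24-299A7.2, so that its count is uncertain. RP24-299A7.2 had at most 39 counts against 1308 to 10457 for Spp1, which does not show how many reads fell on the shared bases.

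Among the late genes, Dmp1 had the largest fold change. Per library it had 82.9, 21.4 and 6.76 CPM in control libraries, and the mutant libraries had 84.5, 198 and 90.8 CPM. The groups did not overlap, but control 1 and mutant 1 differed by less than 2 CPM, while controls 1 and 3 differed 12.3-fold. The group means were 37.0 ± 40.4 and 125 ± 63.9 CPM (SD, n = 3 each). The log2 fold change was 1.75 (standard error 0.69, 95% interval 0.20 to 3.30) with an adjusted p of 0.522 from edgeR. It was 1.26 without control 3, 1.25 without mutant 2 and 3.14 without control 1.

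Phex, the X-linked endopeptidase of osteoblasts and osteocytes (chrX:157162075-157415312, reverse strand), had 20.2, 8.71 and 6.47 CPM in control tissue and 14.6, 26.5 and 14.1 CPM in mutant tissue. Control 1 lay above mutants 1 and 3, and the log2 fold change was 0.64 (95% interval -0.23 to 1.51). It was 1.27 without control 1, 0.35 without control 3, 0.29 without mutant 2 and 0.80 without mutant 3. Mepe had 40, 11 and 1 counts across the control libraries, against 15, 61 and 35 across the mutant libraries. In CPM these were 1.42, 0.359 and 0.0361 in control libraries, and the mutant libraries had 0.636, 2.48 and 1.21. The value of control 3 is below the limit of 3 counts, with a 95% Clopper-Pearson interval, for counting error only, of 0.000915 to 0.201 CPM. The groups overlapped (log2 fold change 1.25, 95% interval -0.54 to 3.03), and the log2 fold change was 2.80 without control 1, 0.71 without control 3 and 0.62 without mutant 2.

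Osteocalcin was near the limit of detection. Bglap had 24, 16 and 13 counts in control tissue and 10, 43 and 13 in mutant tissue, and Bglap2 had 32, 25 and 32 across the control libraries, against 14, 50 and 26 across the mutant libraries. In both genes mutant 2 was the highest and mutant 1 the lowest of the 6 libraries. The log2 fold changes were 0.49 for Bglap (95% interval -0.77 to 1.76) and 0.18 for Bglap2 (95% interval -0.80 to 1.16). Both turned negative without mutant 2, at -0.48 and -0.46. With the counts of Bglap, Bglap2 and Bglap3 summed as 1 feature, the log2 fold change was 0.32 (standard error 0.43). The third gene, Bglap3, had 0 to 2 counts.

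An adjusted p under 0.05 from edgeR was reached by 0 of the 10 genes, all of which were tested, against 0.19% of the 16813 genes tested (0.0535% with higher and 0.137% with lower levels in the mutants). At an unadjusted p under 0.05 there were 3, against 8.64% of all genes tested. Ibsp and Dmp1 had the higher mean in the mutants, against 3.71% of all genes, and Runx2 the lower mean, against 4.93%. DESeq2 and limma-voom also called 0 of the 10. Without the low-count filter edgeR called 2, Dmp1 (log2 fold change 1.74, adjusted p = 0.00231) and Ibsp (1.31, adjusted p = 0.00771), against 0.903% of the 28686 genes then tested. The groups did not overlap in Dmp1, where the mutants were higher (6.85% of all genes tested), and in Runx2, where they were lower (7.58%), or 14.4% of all genes in either direction. The log2 fold change was above 0 in 9 of the 10 genes, and in 49.3% of all genes tested.

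**Figure D2:**
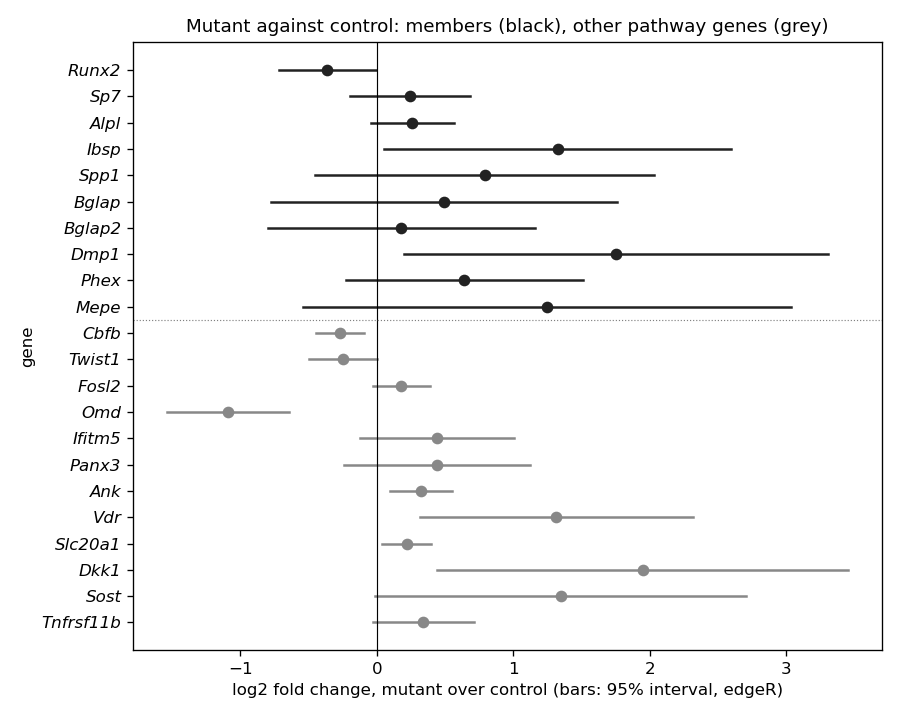
Log2 fold change of mutant over control for the 10 genes (black) and for 12 other genes of the pathway, the 3 with the lowest p in each list (grey), with 95% intervals from edgeR. The intervals of Dmp1 (0.20 to 3.30) and Mepe (-0.54 to 3.03) are much wider than those of Alpl (-0.045 to 0.57) and Runx2 (-0.72 to -0.0090).

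The median log2 fold change was 0.24 for the early genes, 1.06 for the middle genes and 0.64 for the late genes, against -0.0026 for all genes tested. The difference between the late and early medians was 0.40, or 0.93 without control 1, 0.20 without control 3 and 0.26 without mutant 2. In single libraries, the mean log2 level of the late genes minus that of the early genes was -3.98, -4.89 and -5.70 across controls, against -4.57, -3.30 and -3.80 across mutants. The groups overlapped, since control 1 lay above mutant 1. For the middle genes minus the early genes the values were 2.77, 1.64 and 0.199 in control libraries, and the mutant libraries had 2.56, 3.20 and 2.99, and control 1 again lay above mutant 1. Early, middle and late genes thus moved apart between libraries of the same genotype, most of all within the controls.

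The spread within the genotypes set the middle and late genes apart from the early genes. Ranked by the within-group SD of the log2 level among the 16813 genes tested, Mepe was number 26 (SD 1.49), Dmp1 number 36 (1.36), Ibsp number 87 (1.09) and Spp1 number 103 (1.06). Bglap, Phex and Bglap2 were number 328, 564 and 822, with SDs of 0.805, 0.699 and 0.627. Sp7, Runx2 and Alpl were number 3423, 4747 and 5965, with SDs of 0.347, 0.275 and 0.225, while the median over all genes tested was 0.164. In Mepe, Bglap and Bglap2 a part of this spread is counting error. Mutant 2 had the highest of the 6 levels in 9 of the 10 genes, all but Runx2, against 14.1% of the genes tested. Control 3 had the lowest in 6, namely Sp7, Ibsp, Spp1, Dmp1, Phex and Mepe, against 20.3% of the genes tested. Both held in these 6 genes, against 4.48% of the genes tested.

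**Figure D3:**
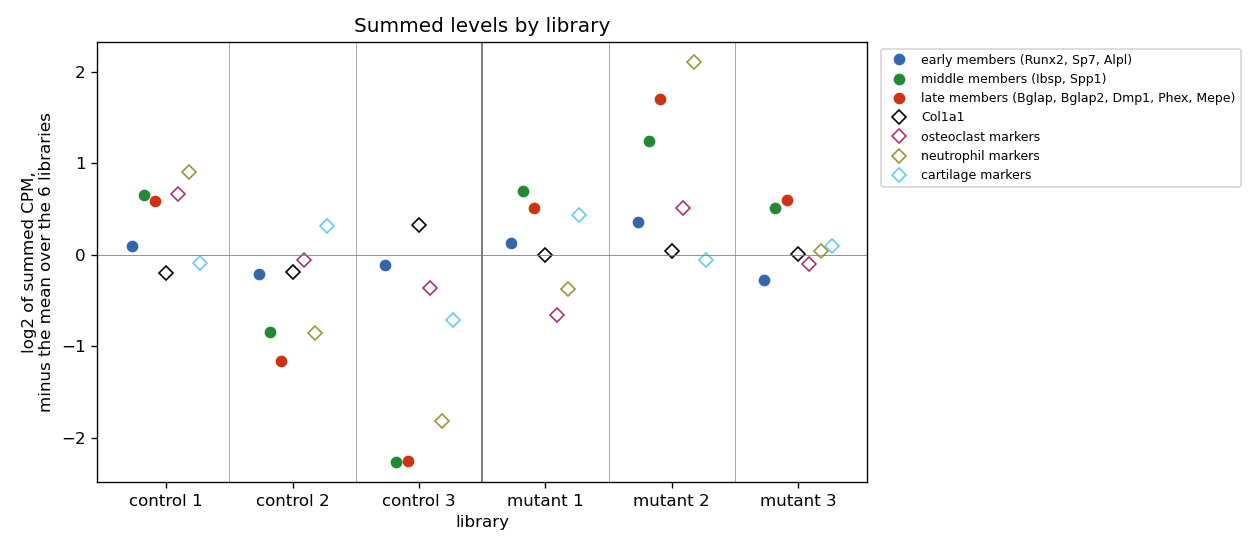
Summed CPM of the early, middle and late genes (filled circles), and of Col1a1 and of osteoclast, neutrophil and cartilage markers (open diamonds), in each library, as log2 minus the mean over the 6 libraries. The sums of the middle and of the late genes were lowest in control 3 and highest in mutant 2, and that of the early genes stayed within 1.55-fold. Dmp1 and Phex made up most of the late sum.

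Markers of other cell types were read beside these levels. The summed level of the late genes was 106, 31.8 and 14.9 CPM in control tissue and 101, 231 and 107 CPM in mutant tissue. Dmp1 and Phex made up most of this sum in each library, so that it says little of Bglap, Bglap2 and Mepe. Col1a1, made by osteoblasts and fibroblasts, went the other way within the controls, with 33199, 33422 and 47781 CPM, and had 37903, 39221 and 38113 CPM in the mutants. Of 10 osteoclast markers 0 were at 0 in any library, and their sum was 578, 351 and 285 CPM across the control libraries, against 232, 519 and 342 CPM across the mutant libraries. Control 3 was thus the lowest control in the sums of the late genes and of the osteoclast markers, though not in each gene of either list, and the highest in Col1a1. Ctsk (cathepsin K), the most abundant osteoclast marker, had 227, 233 and 185 CPM in control libraries, and the mutant libraries had 128, 218 and 157 CPM (log2 fold change -0.36), so that it did not share the order of the late genes. Mmp9, a protease of osteoclasts and the next most abundant, had 229, 57.3 and 40.4 CPM in control libraries, and the mutant libraries had 51.4, 163 and 90.1 CPM. Mmp13, a collagenase of terminal hypertrophic chondrocytes and osteoblasts, had 104, 28.0 and 14.8 CPM in control tissue and 24.1, 65.8 and 28.2 CPM in mutant tissue. Control 1 and mutant 2 were the highest libraries in both proteases, which were not called (log2 fold changes -0.10 and -0.32). These libraries were also the highest in the osteoclast markers Acp5, Atp6v0d2, Ocstamp, Dcstamp, Oscar and Car2, but not in Ctsk, Calcr and Itgb3. Acp5 had 57.3, 18.3 and 13.2 CPM in control libraries, and the mutant libraries had 19.6, 73.2 and 35.5 CPM. The sum of 8 cartilage markers was 3244 to 6594 CPM in the controls, lowest in control 3, and 5113 to 7204 CPM in the mutants. The part of these cell types in the levels of the 10 genes was not tested.

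Of the genes outside the 10, the 5 whose log2 level over the 6 libraries was most like the mean standardized level of the 10 genes were Acap1 (Pearson r = 0.996, n = 6 libraries), Pde1b (0.992), Zfp677 (0.991), Retnlg (0.986) and Stfa2 (0.986), picked from all genes tested. Retnlg is a gene of neutrophils, which are made in the marrow, and it had 77, 22 and 11 counts across the control libraries, against 34, 174 and 43 across the mutant libraries. A list of 10 neutrophil markers, written after this was seen, summed to 39.5, 11.7 and 6.0 CPM in control libraries, and the mutant libraries had 16.4, 91.0 and 21.8 CPM, with S100a9 and S100a8 as its most abundant members and 1 of the 10 at 0 in some library. Mutant 2 was the highest and control 3 the lowest library of this sum, as in Ibsp, Spp1, Dmp1, Phex and Mepe. Bglap and Bglap2 had their lowest counts in mutant 1. For Bglap this place is uncertain, at 10 counts against 13 in control 3 and 13 in mutant 3. The part of such cells was not tested.

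Other genes of the pathway were taken from lists of osteoblast transcription factors, osteoblast matrix and membrane genes, regulators of phosphate and mineral, and osteocyte genes. Of the 12, 9, 12 and 5 tested genes in these lists, 0 had an adjusted p under 0.05 from edgeR in either direction. At an unadjusted p under 0.05 there was 1 lower transcription factor, 1 lower matrix gene, 3 higher mineral regulators and 1 higher osteocyte gene. Of all genes tested 3.71% were higher and 4.93% lower at this threshold. The medians of the log2 fold change were -0.054, -0.0081, 0.077 and 0.34, against -0.0026 over all genes tested. DESeq2 called 1 gene of the lists, against 1.17% of the genes for which it gave an adjusted p, and limma-voom called 0.

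Of the 7 genes of the osteocyte list, Dkk1 and Sost had control 3 as the lowest and mutant 2 as the highest library, as Dmp1 did. This pattern stood in 4.48% of all genes tested. Dkk1, a secreted Wnt antagonist, had 3.73, 1.04 and 0.470 CPM in control tissue and 3.14, 12.4 and 4.69 CPM in mutant tissue (log2 fold change 1.95, 95% interval 0.44 to 3.45, adjusted p = 0.447 from edgeR). Sost, which encodes the Wnt antagonist sclerostin, had 4.55, 2.81 and 0.434 CPM across the control libraries, against 3.39, 10.4 and 6.06 CPM across the mutant libraries (log2 fold change 1.35, 95% interval -0.014 to 2.71). The groups overlapped in both genes. Without control 1, control 3 and mutant 2 in turn, the log2 fold change was 3.13, 1.51 and 1.17 for Dkk1 and 2.01, 0.85 and 0.87 for Sost. The other genes of the list did not follow this order. Pdpn (podoplanin) had a log2 fold change of 0.0086, and Cd44, a cell surface receptor, one of 0.15 with mutant 3 as its highest library. Tnfrsf11b, the decoy receptor osteoprotegerin, had a log2 fold change of 0.34 (95% interval -0.030 to 0.71). Its lowest library was control 3, but its highest was mutant 3. Fgf23, the phosphate-regulating hormone of osteocytes, had 4, 2 and 14 counts in the control and 4, 16 and 10 in the mutant libraries, so that control 3 was its highest control. Dspp had 0 to 2 counts, and neither gene passed the low-count filter.

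Among the mineral regulators, Vdr, the vitamin D receptor, had 15.2, 5.58 and 3.94 CPM in control libraries, and the mutant libraries had 13.5, 29.9 and 18.1 CPM, with control 1 above mutant 1. Its log2 fold change was 1.32 (95% interval 0.31 to 2.32, adjusted p = 0.444 from edgeR), or 2.10 without control 1, 0.99 without control 3 and 0.94 without mutant 2. Ank, which exports pyrophosphate from the cell, had 52.7, 49.6 and 53.6 CPM in control tissue and 65.0, 73.7 and 56.4 CPM in mutant tissue, and the phosphate transporter Slc20a1 had 49.0, 52.6 and 45.7 CPM against 58.8, 56.5 and 56.3 CPM. In these 2 genes each mutant was above each control, as in 6.85% of all genes tested. Their log2 fold changes were 0.32 and 0.22 (adjusted p = 0.400 and 0.473 from edgeR).

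Among the transcription factors, Cbfb, the partner of Runx proteins, had 106, 110 and 96.6 CPM across the control libraries, against 84.8, 87.6 and 87.2 CPM across the mutant libraries. Each mutant was below each control, as for Runx2 and for 7.58% of all genes tested. The log2 fold change of Cbfb was -0.27 (95% interval -0.44 to -0.095, adjusted p = 0.331 from edgeR). Twist1, which holds back Runx2, had a log2 fold change of -0.25 (95% interval -0.50 to 0.0032) and the AP-1 factor Fosl2 one of 0.18 (95% interval -0.029 to 0.39).

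Among the matrix and membrane genes, Omd (osteomodulin), a keratan sulphate proteoglycan of bone, had 7.0, 8.74 and 7.33 CPM in control libraries, and the mutant libraries had 3.69, 4.43 and 2.76 CPM. Each mutant was below each control, as in 7.58% of all genes tested, and the groups were well apart. The log2 fold change of Omd was -1.09 (standard error 0.20) with an adjusted p of 0.0952 from edgeR. It is the gene of the lists that DESeq2 called (log2 fold change -1.09, adjusted p = 0.000244). The sum of 5 tendon markers was also lower in each mutant, with 2993 to 3288 CPM in the controls and 2004 to 2341 CPM in the mutants, and its part in the level of Omd was not tested. Tnmd fell (log2 fold change -0.81, adjusted p = 0.0374 from edgeR), Fmod, the most abundant of these markers, had a log2 fold change of -0.76 (adjusted p = 0.0602 from edgeR), and Thbs4 had means of 815 and 825 CPM (log2 fold change 0.017). Ifitm5, a membrane protein of osteoblasts, and Panx3, a channel protein of hypertrophic chondrocytes and osteoblasts, each had a log2 fold change of 0.44, with overlap of the groups. Without control 3 it was 0.24 for Ifitm5 and 0.13 for Panx3, and without control 1 it was 0.77 and 0.87. Panx3 had 41.6, 26.8 and 14.2 CPM in control tissue and 43.6, 38.1 and 30.7 CPM in mutant tissue, and its lowest library was control 3, as for Dmp1.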

How the data were processed

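Bulk RNA sequencing of growth plate cartilage gave 6 libraries, grouped by the genotype in the sample titles. The authors trimmed reads with Trim Galore 0.6.4, mapped them to GRCm38 with STAR 2.6.1d and counted them on exons with featureCounts 1.6.4, without strand and without reads of several places. The deposited values are whole-number counts per gene, not normalized, and 0 columns were left unused. Genes were kept by filterByExpr of edgeR 4.0.16 under R 4.3.3 (at least 10 counts, total of at least 15), and genotype was tested on the 16813 genes left with TMM factors and the quasi-likelihood test, with Benjamini-Hochberg adjustment and a threshold of 0.05. Intervals are from the same fit, and log2 levels used a prior count of 2. Litter, which the study's design held, is not in the labels. The functions were tested on simulated counts, and replicate libraries differed by more than sampling noise (chi-square over its degrees of freedom, 11.6 to 45.1). Alternatives were DESeq2 1.42.0, limma-voom (limma 3.58.1), upper-quartile factors, other filters, a Y-linked covariate, a replicate block and each library left out. The Y-linked covariate set mutant 3 apart from the other libraries. The genes, stages and lists were chosen with earlier results of these data known, and the neutrophil list was written last. Named were the 10 genes, the 3 genes of lowest p in each pathway list, the 2 most abundant markers of each list, Idh1 and the 5 genes most alike. Mmp13, Col1a1, Tnmd, Pdpn, Cd44, Xist and RP24-299A7.2, the osteoclast markers other than Ctsk and Mmp9, and untested genes with few counts, were named after their values were seen. Of the lists not described, the summed CPM of markers was 559 to 774 for hypertrophic cartilage (led by Mef2c and Vegfa), 19761 to 26833 for periosteum (Col3a1 and Postn) and 719 to 818 for endothelium (Cdh5 and Pecam1), each with overlap of the groups, and for erythroid cells (Hbb-bs and Hba-a1) 551 to 1591 in the controls and 291 to 431 in the mutants. Promoters are from RefSeq and annotation from GENCODE M21. The plots used Python 3.11.15 and matplotlib 3.10.9.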

Additional observations from a re-analysis of the deposited data

How the results depend on the processing

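With other tools, filters, factors or covariates, 79 values for the 10 genes kept their direction and their side of the threshold and 2 came to pass it. With 1 library left out, 58 kept both and 2 changed direction. Dmp1 (log2 fold change 1.74) and Ibsp (1.31) passed the threshold in edgeR without the low-count filter. There 2 of the 10 genes and 5 genes of the pathway lists (Omd, Sost, Vdr, Dkk1 and Ahsg) were called, against 0.903% of the 28686 genes tested. Ahsg had 1, 11 and 78 counts in the control and 2, 0 and 0 in the mutant libraries, so that its difference came mostly from control 3. DESeq2 called 1 gene of the lists, Omd, against 1.17% of the genes for which it gave an adjusted p. With the replicate block it again called Omd alone of the lists. With libraries left out in turn, Bglap lay between -0.48 and 0.82 and Bglap2 between -0.46 and 0.49, both negative only without mutant 2. Dmp1 lay between 1.25 and 3.14, Ibsp between 0.87 and 2.40, Spp1 between 0.24 and 1.67, and Mepe between 0.62 and 2.80. Phex lay between 0.29 and 1.27, Sp7 between 0.029 and 0.43, Alpl between 0.13 and 0.40, and Runx2 between -0.49 and -0.17. In these fits 0 of the 10 were called. The lowest adjusted p among the 10 was 0.0927, without control 1. Mepe was not tested with at least 10 counts in every library. The difference between late and early medians lay between 0.20 and 0.93 over all alternatives. The cause of the differences between tools and filters was not tested. Over all genes, 32 were called by edgeR, 193 by DESeq2, 19 by limma-voom, 259 without the low-count filter, 6 with the Y-linked covariate and 3 to 17 with any 1 of the 6 libraries left out.

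The labels do not say whether the replicate numbers pair the libraries. Deviations of same-numbered libraries from their group means correlated at -0.127, 0.00700 and -0.0953. With 3 libraries per genotype these values cannot show whether litters were shared. With the replicate number as a block, edgeR called 3 genes and DESeq2 96, and 0 of the 10 genes in either fit. Genes with counts as low as those of Bglap, Bglap2 and Mepe are limited by depth, and Bglap and Bglap2 also by the reads left uncounted.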
